A study of Saccharomyces cerevisiae and Kluyveromyces lactis with 95 samples.

Results

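The genes described here are 40 genes of purine, pyrimidine and one-carbon metabolism of the budding yeast *Saccharomyces cerevisiae*, chosen by name from the 6600 genes of the count files. The names cover the enzymes that build IMP, AMP and GMP, the PRPP synthetases, the enzymes that build UMP and CTP, the serine and glycine enzymes that load folate, ribonucleotide reductase and 3 salvage enzymes. Orthologs of 39 of the 40 were named in *Kluyveromyces lactis*, all except *IMD2*, and fell on 32 of its 5534 genes, because a pair of *S. cerevisiae* paralogs can share 1 *K. lactis* gene. *GCV1*, for a subunit of glycine cleavage, had 0 counts in every *S. cerevisiae* library and could not be tested, which left 39 tested members. *ADK2*, *YNK1*, *GLY1* and *SER1* of the same pathways, outside the 40, also had 0 counts throughout. The reason was not tested, so 0 counts are not read as absence of RNA.

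Cultures of both species were grown in rich glucose medium (YPD), each was divided, and the portions received 3 uM 1-NM-PP1 or the solvent DMSO for 50 min before QuantSeq 3′ RNA sequencing. PKA-AS strains carried gatekeeper mutations in PKA, which let 1-NM-PP1 inhibit the kinase, and PKA-WT strains lacked them. The *S. cerevisiae* strains were W303 haploids with *leu2*, *his3*, *trp1* and *ura3* markers, with *ADE2* restored in PKA-WT and ADE+ in PKA-AS, and the *K. lactis* strains were ura-. In *S. cerevisiae*, *MSN2* and *MSN4* (ΔMsn2/4), *RPH1* and *GIS1* (ΔRph1/Gis1) or all 4 genes (the quadruple deletion) had been removed, with 4 cultures per treatment in each PKA-AS strain and 3 in each PKA-WT strain. In *K. lactis*, the single ortholog of *MSN2* and *MSN4*, that of *RPH1* and *GIS1* or both had been removed from PKA-AS, with 4 cultures per treatment (3 with both removed), and PKA-WT was without deletion, with 3 cultures on 1-NM-PP1 and 2 on DMSO. The PKA-AS cultures without deletion are labelled 1, 2, 3 and 2017, the last described by the labels as collected in that year, and those of the deletion strains 1 to 4; values below follow that order.

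Purine synthesis starts from PRPP, an activated ribose phosphate made by the PRS enzymes. The ADE enzymes build IMP on it, from which Ade12 and Ade13 make AMP and the IMD enzymes and Gua1 make GMP. Pyrimidine synthesis makes the ring first, joins it to PRPP through Ura5 or Ura10, and ends with CTP made by Ura7 or Ura8. Serine hydroxymethyltransferases and glycine cleavage charge folate with the carbon units that the ADE route and thymidylate need, and ribonucleotide reductase turns ribonucleotides into the building blocks of DNA. In growing yeast much of the nucleotide supply goes into ribosomal RNA, and PKA, active on glucose, promotes growth and keeps the stress activators Msn2 and Msn4 out of the nucleus.

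Stretches upstream of 8 members are shown. They belong to 3 paralog pairs whose members went apart with 1-NM-PP1 and to *GUA1* and *RNR3*, which changed by more than 2 on the log2 scale. Other members with changes that large, such as *URA1*, are not shown, nor is *RNR1*, the paralog of *RNR3*. Each run is the sequence from 250 to 51 bases before the start codon, read 5′ to 3′ on the gene's strand, from RefSeq on build R64: *URA10* at chrXIII:807599-807798 (minus strand), *URA5* at chrXIII:56523-56722 (plus strand), *ADE16* at chrXII:201366-201565 (minus strand), *ADE17* at chrXIII:509331-509530 (minus strand), *URA8* at chrX:620504-620703 (plus strand), *URA7* at chrII:145779-145978 (minus strand), *GUA1* at chrXIII:701540-701739 (plus strand) and *RNR3* at chrIX:240759-240958 (minus strand). Capitals mark letters found on either strand: TGACTC (the Bas1 and Gcn4 site, regulators of purine and amino acid synthesis), CCCCT (the stress response element, STRE, bound by Msn2 and Msn4), GATGAG (the PAC element) and AAAATTTT (RRPE) of ribosome assembly genes, and ACGCGT (the MCB element of G1/S genes).
URA10: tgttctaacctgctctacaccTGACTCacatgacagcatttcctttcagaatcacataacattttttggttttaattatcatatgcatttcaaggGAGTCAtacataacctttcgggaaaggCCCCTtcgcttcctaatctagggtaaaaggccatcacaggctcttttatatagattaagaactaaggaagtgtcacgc
URA5: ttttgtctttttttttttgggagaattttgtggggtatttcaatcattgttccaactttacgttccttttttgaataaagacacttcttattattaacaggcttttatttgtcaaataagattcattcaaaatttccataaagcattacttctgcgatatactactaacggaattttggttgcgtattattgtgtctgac
ADE16: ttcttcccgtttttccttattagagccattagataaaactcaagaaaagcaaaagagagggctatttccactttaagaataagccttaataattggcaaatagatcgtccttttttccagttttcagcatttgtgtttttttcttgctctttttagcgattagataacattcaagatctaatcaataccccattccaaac
ADE17: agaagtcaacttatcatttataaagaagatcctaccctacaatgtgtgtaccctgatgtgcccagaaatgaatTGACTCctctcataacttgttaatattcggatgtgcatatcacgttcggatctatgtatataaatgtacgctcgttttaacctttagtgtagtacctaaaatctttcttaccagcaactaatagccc
URA8: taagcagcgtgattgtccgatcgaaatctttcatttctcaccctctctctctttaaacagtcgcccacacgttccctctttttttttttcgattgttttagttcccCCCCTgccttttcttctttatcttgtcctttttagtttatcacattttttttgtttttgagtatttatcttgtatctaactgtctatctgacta
URA7: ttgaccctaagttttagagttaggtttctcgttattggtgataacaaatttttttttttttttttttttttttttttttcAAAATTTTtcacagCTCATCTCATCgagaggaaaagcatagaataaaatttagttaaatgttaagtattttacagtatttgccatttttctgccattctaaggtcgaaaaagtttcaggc
GUA1: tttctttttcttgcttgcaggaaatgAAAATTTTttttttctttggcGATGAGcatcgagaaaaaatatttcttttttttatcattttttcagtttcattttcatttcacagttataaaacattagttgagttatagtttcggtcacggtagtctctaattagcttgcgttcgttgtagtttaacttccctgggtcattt
RNR3: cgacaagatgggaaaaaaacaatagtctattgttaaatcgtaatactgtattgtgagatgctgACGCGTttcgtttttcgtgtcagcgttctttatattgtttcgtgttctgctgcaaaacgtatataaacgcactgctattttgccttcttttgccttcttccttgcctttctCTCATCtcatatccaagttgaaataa

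The *URA10* stretch held TGACTC at 2 places and 1 STRE, and *URA5*, the other gene for the same step, held no match of the 5 motifs. *URA8* held 1 STRE, and *URA7* held 2 PAC matches that overlap and 1 RRPE. The third pair differed from these: *ADE16*, which rose with 1-NM-PP1, held no match of the 5 motifs, and *ADE17*, which fell, held 1 TGACTC. *RNR3*, which rose, held 1 PAC and 1 MCB but no STRE, and its paralog *RNR1*, which fell and is not shown, also held 1 PAC. *GUA1* held 1 PAC and 1 RRPE. Among all 6001 promoters of RefSeq's table, in windows from 250 bases before to 50 after the start codon, 7.98% held TGACTC, 20.4% PAC, 9.03% RRPE, 21.6% an STRE and 3.07% an MCB. Of the 40 members, all of which matched the table, 15 (37.5%) held TGACTC, 15 (37.5%) PAC, 10 (25%) RRPE, 10 (25%) an STRE and 1, *RNR3*, an MCB. Among the 24 members that fell with 1-NM-PP1 in PKA-AS without deletion, described next, 11 held PAC, 8 RRPE, 8 TGACTC and 3 an STRE. A match is a run of letters and not a measured site. The paper's promoters reach further upstream, and bases beyond 250 before the start codon were not searched here.

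The 60 *S. cerevisiae* libraries, of which 59 were used, held 188289 to 4715139 counts on genes (median 2062219), and the 35 *K. lactis* libraries 815372 to 4117520 (median 2405976). The library of 188289 counts was 1-NM-PP1 culture 3 of PKA-AS with ΔMsn2/4, so the CPM of that culture are the least precise. Levels are given as CPM, counts scaled to a common library total. Counting with 3′ tags gives no level per length, so no level is compared between genes. The deleted genes checked the labels only in part, since *RPH1* had 0 counts everywhere. *MSN2* had a median of 0.581 CPM in deleted libraries against 3.47 CPM in the others and *MSN4* one of 3.92 CPM against 19.0 CPM, with up to 69 counts in a deleted library. *GIS1* had a median of 2.204 CPM in deleted libraries against 2.851 CPM in the others, so no *S. cerevisiae* count bears out the label of the Rph1/Gis1 deletion. In *K. lactis*, 8 of 30 PKA-AS libraries went against their deletion label at the level of an ortholog. The limits were under 3 CPM of the Msn2/4 ortholog where kept, over 5 CPM where deleted, and over 10 CPM of a deleted Rph1/Gis1 ortholog. Some libraries lay close to a limit, such as 1-NM-PP1 cultures 2 and 3 without the Rph1/Gis1 ortholog, at 2.61 and 2.86 CPM of the Msn2/4 ortholog. Among the PKA-AS DMSO cultures without deletion in *S. cerevisiae*, culture 1 was the highest for 19 of the 39 members and culture 2017 the lowest for 19. Bulk libraries cannot tell less RNA per cell from fewer cells of a kind.

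Most of the pathway was lower with 1-NM-PP1 in *S. cerevisiae* PKA-AS. In PKA-AS without deletion, 24 of 39 members fell with 1-NM-PP1 (61.5%, where 21.2% of all 5779 tested genes fell) and 3 rose, *ADE16*, *URA10* and *RNR3* (7.69%, where 20.7% of all genes rose), by edgeR's quasi-likelihood test at an adjusted p under 0.01. The median log2 fold change (LFC, 1-NM-PP1 over DMSO) was -2.33 over the members and 0.005 over all genes. Every salvage enzyme and every enzyme of the GMP branch was among those that fell, as were 6 of the 9 enzymes from PRPP to IMP and AMP, 5 of the 8 pyrimidine enzymes, 3 of the 5 PRPP synthetases, 2 of the 6 tested one-carbon enzymes and 1 of the 4 subunits of ribonucleotide reductase.

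**Figure D1:**
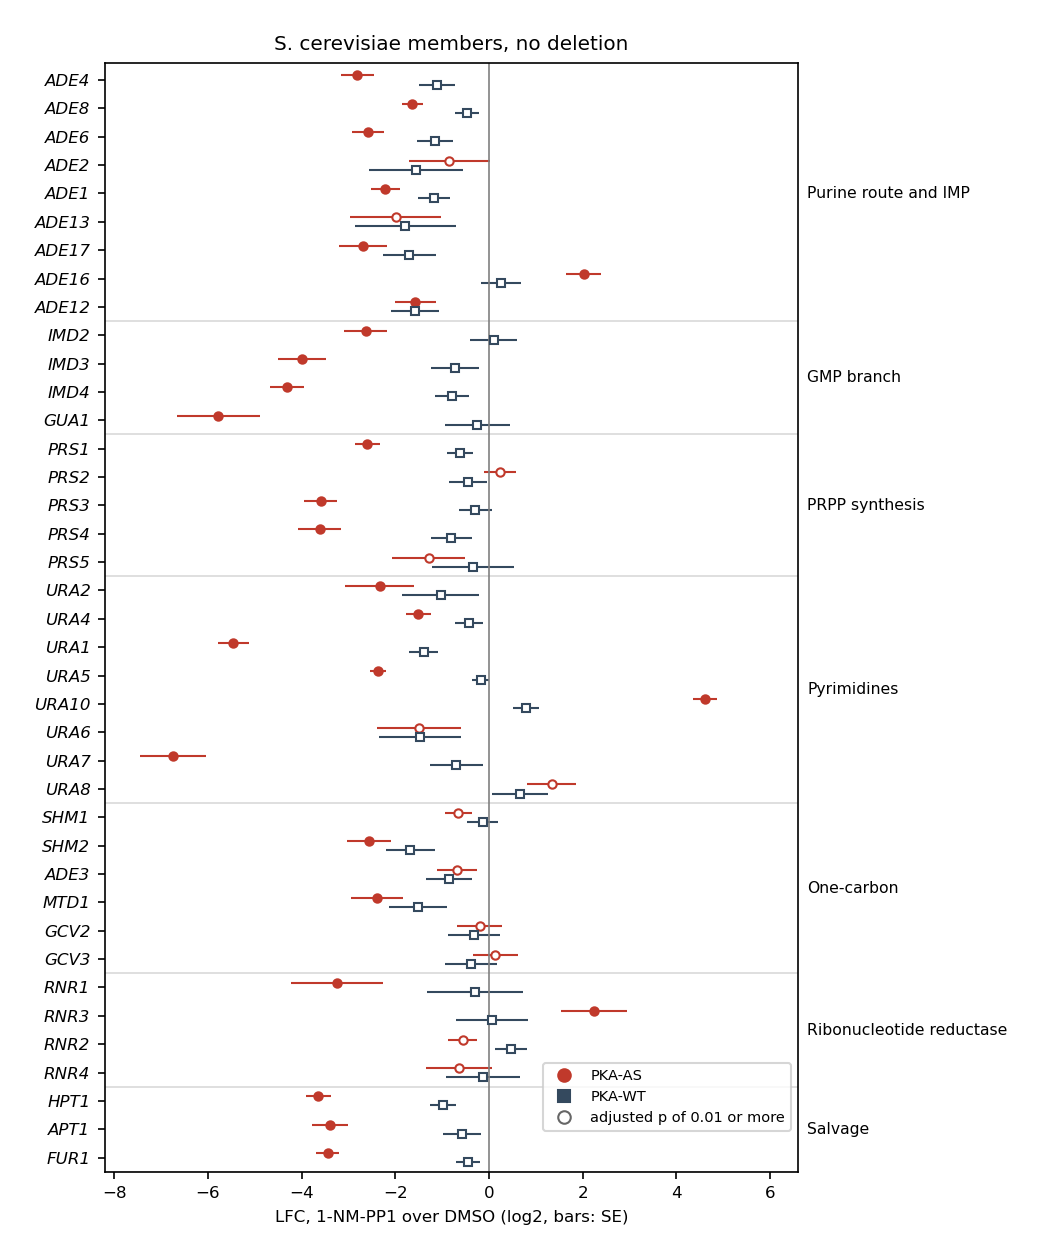
LFC of the 39 tested members in *S. cerevisiae* without deletion, grouped by role, for PKA-AS (circles, 4 cultures per treatment) and PKA-WT (squares, 3 cultures per treatment). Bars are standard errors and open symbols have an adjusted p of 0.01 or more. *URA10*, *RNR3* and *ADE16* are the filled circles right of 0, and all PKA-WT symbols are open.

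On the way to IMP, *ADE4*, for the amidotransferase of the first committed step, fell by 2.82 on the log2 scale, to 27.0, 41.7, 31.4 and 37.0 CPM in the 1-NM-PP1 cultures against 263, 368, 224 and 111 CPM in the DMSO cultures. *ADE6*, *ADE1* and *ADE8*, for later steps of the route, had LFC of -2.59 ± 0.35 (SE, adjusted p = 1.80e-08), -2.21 ± 0.31 (SE, adjusted p = 3.75e-08) and -1.64 ± 0.23 (SE, adjusted p = 3.44e-08). For all 4 genes every 1-NM-PP1 culture was below every DMSO culture. *ADE2*, which makes the enzyme whose loss turns cells red, had an LFC of -0.84 ± 0.86 (SE, adjusted p = 0.429), and its groups overlapped.

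The final steps to IMP are catalysed by Ade16 and Ade17, which carry out the same reactions, and their genes moved apart. *ADE16* had 2688, 5692, 4010 and 3641 CPM with 1-NM-PP1 against 588, 1369, 1116 and 879.5 CPM with DMSO, an LFC of 2.02 ± 0.38 (SE, adjusted p = 1.74e-05). *ADE17* had 51.0, 76.4, 52.9 and 54.5 CPM with 1-NM-PP1 against 452, 595, 379 and 91.7 CPM with DMSO, an LFC of -2.69 ± 0.51 (SE, adjusted p = 1.57e-05). No culture overlapped between treatments for either gene, and the DMSO culture 2017 was far below the other DMSO cultures for *ADE17*.

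*ADE12*, which commits IMP to AMP, fell, with an LFC of -1.57 ± 0.45 (SE, adjusted p = 0.00273), and without DMSO culture 2 its adjusted p was 0.0109. *ADE13*, which acts both in the route to IMP and in the AMP branch, had 35.0, 12.1, 14.2 and 22.3 CPM with 1-NM-PP1 against 183, 76.3, 35.8 and 37.4 CPM with DMSO. Its LFC was -1.99 ± 0.97 (SE, adjusted p = 0.0817), and with the culture as a block it passed, at -1.81 and an adjusted p of 0.00111. In both treatments culture 1 was the highest.

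In the GMP branch all 4 members fell. *IMD4* had 16.0, 13.6, 20.6 and 18.2 CPM with 1-NM-PP1 against 467, 260.1, 243 and 391 CPM with DMSO, an LFC of -4.31 ± 0.36 (SE, adjusted p = 3.45e-14). *IMD3* had 13.5, 5.03, 17.2 and 15.2 CPM against 279.6, 161, 152 and 225 CPM with DMSO, an LFC of -4.00 ± 0.51 (SE, adjusted p = 6.62e-09). The IMD enzymes are IMP dehydrogenases, whose step is rate-limiting for GMP, and *IMD2*, the isoform known for its induction when GTP runs short, had 8.49, 35.2, 30.9 and 51.6 CPM with 1-NM-PP1 against 142, 203, 205 and 234 CPM with DMSO, an LFC of -2.64 ± 0.46 (SE, adjusted p = 4.63e-06). The treatments did not overlap for any of them, but the IMD genes are near-identical in sequence, and reads that align to more than 1 of them were not counted, so their separate levels are uncertain.

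*GUA1*, for GMP synthase, came close to the counting limit. Its 1-NM-PP1 cultures held 0.500, 1.51, 0.980 and 0 CPM, with at most 3 counts in a library, against 53.1, 37.0, 60.8 and 29.8 CPM in the DMSO cultures. Summed over cultures, 6 counts with 1-NM-PP1 stood against 413 with DMSO, which is 63.5-fold lower for the library totals (95% interval 28.9 to 174, exact, covering counting error only; adjusted p of the fit 3.24e-07).

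Among the PRPP synthetases, which act as complexes of several subunits, the treatments parted *PRS1*, *PRS3* and *PRS4* from *PRS2* and *PRS5*. *PRS3* had 20.0, 9.05, 17.6 and 6.45 CPM with 1-NM-PP1 against 232, 160.1, 129.7 and 126 CPM with DMSO, an LFC of -3.60 ± 0.35 (SE, adjusted p = 2.97e-12). *PRS4* had 8.49, 2.01, 4.41 and 4.69 CPM against 88.7, 41.0, 53.4 and 60.4 CPM with DMSO, an LFC of -3.62 ± 0.45 (SE, adjusted p = 3.22e-09). *PRS1* fell as well, with an LFC of -2.60 ± 0.26 (SE, adjusted p = 8.46e-12), and in all 3 genes the cultures of the treatments did not overlap.

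*PRS2*, the paralog of *PRS4*, had 164, 144, 146 and 179 CPM with 1-NM-PP1 against 154, 147, 109 and 128 CPM with DMSO, and its LFC was 0.23 ± 0.34 (SE, adjusted p = 0.595). Its treatments overlapped. *PRS5* had an LFC of -1.28 ± 0.78 (SE, adjusted p = 0.169), also with overlapping cultures.

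In pyrimidine synthesis *URA2*, for the enzyme of the first steps that UTP inhibits, had 110.4, 56.3, 89.7 and 142 CPM with 1-NM-PP1 against 1045, 341, 194 and 430.2 CPM with DMSO. Its LFC of -2.33 ± 0.74 (SE, adjusted p = 0.00708) lost its call without any of DMSO culture 1 and the 1-NM-PP1 cultures 1, 2, 3 and 2017, at adjusted p up to 0.0583 without DMSO culture 1, and without both 2017 cultures (adjusted p = 0.0125). *URA4*, for dihydroorotase, fell with an LFC of -1.51 ± 0.26 (SE, adjusted p = 3.78e-06). *URA1*, for dihydroorotate dehydrogenase, had 8.49, 10.6, 12.7 and 13.5 CPM with 1-NM-PP1 against 489.5, 586, 477 and 442 CPM with DMSO, an LFC of -5.46 ± 0.32 (SE, adjusted p = 6.89e-19), and the treatments were far apart.

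The step that joins orotate to PRPP has a pair of isozymes. *URA10*, for the minor isozyme, had the largest increase among the members, with 194, 228, 216 and 164 CPM in the 1-NM-PP1 cultures against 8.52, 8.67, 7.75 and 7.64 CPM in the DMSO cultures and an LFC of 4.61 ± 0.26 (SE, adjusted p = 1.85e-19). *URA5*, for the major isozyme, had 102, 71.4, 94.1 and 116 CPM with 1-NM-PP1 against 546, 417, 507 and 517 CPM with DMSO, an LFC of -2.37 ± 0.17 (SE, adjusted p = 1.62e-16). Neither gene had overlapping cultures, and within a treatment the 4 cultures of each gene lay close together.

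CTP synthase has a pair of isozymes too. *URA7* had 0.500, 0, 3.92 and 2.35 CPM with 1-NM-PP1 against 376, 137, 137 and 96.3 CPM with DMSO, with 13 counts in all against 1572, which is 111-fold lower for the library totals (95% interval 65.0 to 210, counting error only; LFC of the fit -6.75 ± 0.70 (SE, adjusted p = 2.30e-11)). Of the 13 counts, 8 were in 1-NM-PP1 culture 3, and without it the ratio was 213-fold (91.3 to 658). *URA8* had 253, 573, 430.4 and 299 CPM with 1-NM-PP1 against 97.7, 184, 192 and 139 CPM with DMSO. No cultures overlapped, but the LFC of *URA8*, 1.34 ± 0.53 (SE, adjusted p = 0.0296), missed the threshold and passed it with the culture as a block, at 1.32 and an adjusted p of 9.64e-05. *URA6*, for the UMP kinase, was counted at 1 to 4 reads in the 1-NM-PP1 libraries and 2 to 16 in the DMSO libraries, too few to show a difference (adjusted p = 0.162).

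**Figure D2:**
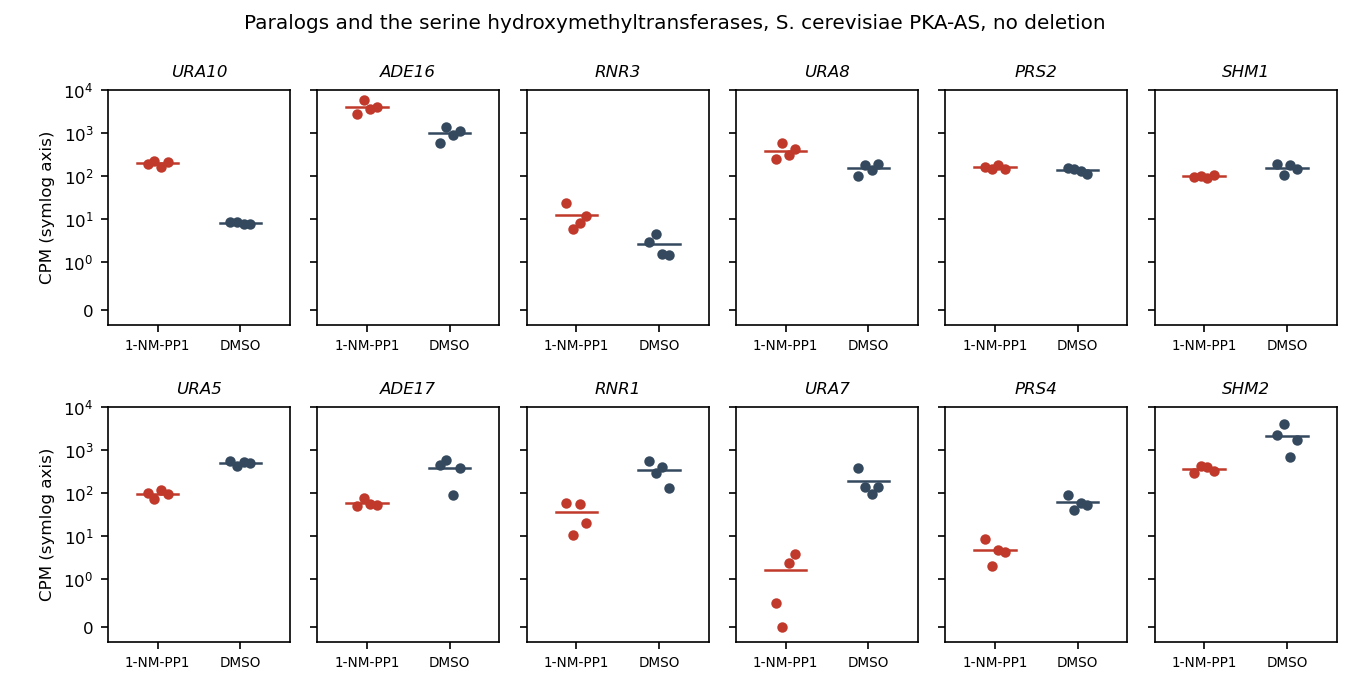
CPM in each *S. cerevisiae* PKA-AS culture without deletion, 1-NM-PP1 left of DMSO, for the members of 5 paralog pairs and for the mitochondrial and cytosolic serine hydroxymethyltransferases. Points are the 4 cultures and lines their means, on an axis that is linear below 1 CPM and logarithmic above. In the pairs from *URA10* with *URA5* to *URA8* with *URA7*, the upper gene is higher with 1-NM-PP1 and the lower gene lower.

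Among the one-carbon genes *SHM2*, for the cytosolic serine hydroxymethyltransferase, had 298, 434, 326 and 402 CPM with 1-NM-PP1 against 2170, 3977, 1742 and 705 CPM with DMSO, an LFC of -2.56 ± 0.47 (SE, adjusted p = 8.55e-06). *MTD1*, for a cytosolic methylenetetrahydrofolate dehydrogenase, fell with it, at -2.39 ± 0.56 (SE, adjusted p = 0.000338). The DMSO culture 2017 was the lowest DMSO culture for both genes and still above every 1-NM-PP1 culture.

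*SHM1*, for the mitochondrial serine hydroxymethyltransferase, had 95.4, 102, 106 and 88.0 CPM with 1-NM-PP1 against 186, 107, 148 and 177 CPM with DMSO, without overlap. Its LFC of -0.66 ± 0.29 (SE, adjusted p = 0.0515) missed the threshold, and with the culture as a block it was -0.63 with an adjusted p of 0.00631. *ADE3*, for the cytosolic trifunctional folate enzyme, had an LFC of -0.67 ± 0.43 (SE, adjusted p = 0.185). The glycine cleavage genes *GCV2* and *GCV3* had LFC of -0.20 ± 0.48 (SE, adjusted p = 0.758) and 0.14 ± 0.48 (SE, adjusted p = 0.842), and their cultures overlapped.

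Ribonucleotide reductase has large subunits Rnr1, the usual form, and Rnr3, known for its induction by DNA damage. *RNR1* had 60.5, 10.6, 20.1 and 54.5 CPM with 1-NM-PP1 against 549.7, 295, 134 and 404 CPM with DMSO, an LFC of -3.25 ± 0.98 (SE, adjusted p = 0.00469). *RNR3* was a low gene, with 24.0, 6.03, 11.8 and 8.21 CPM with 1-NM-PP1 against 3.01, 4.62, 1.49 and 1.53 CPM with DMSO, where libraries held 12 to 48 counts against 2 to 8, and its LFC was 2.24 ± 0.71 (SE, adjusted p = 0.00704). The cultures did not overlap for either gene. Both calls were close to the threshold: that of *RNR1* was lost without DMSO culture 1 (0.0143) or the 1-NM-PP1 cultures 2 (0.0212) or 3 (0.0190), and that of *RNR3* without DMSO culture 1 (0.0152), 3 (0.0327) or 2017 (0.0222) or 1-NM-PP1 culture 1 (0.0540) or 3 (0.0111), each value an adjusted p from edgeR. Both were also lost without the 2017 pair (0.0135 for *RNR1* and 0.0203 for *RNR3*).

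The small subunits were not called. *RNR2* had 20.0, 22.1, 15.7 and 5.28 CPM with 1-NM-PP1 against 22.6, 24.3, 29.2 and 16.8 CPM with DMSO, an LFC of -0.56 ± 0.31 (SE, adjusted p = 0.129). *RNR4* had 5.50, 6.54, 8.82 and 3.52 CPM against 16.0, 4.62, 11.0 and 6.11 CPM with DMSO, an LFC of -0.65 ± 0.70 (SE, adjusted p = 0.461). Cultures overlapped for both genes.

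All 3 salvage enzymes, which rebuild nucleotides from free bases with PRPP, fell. *HPT1*, for hypoxanthine-guanine phosphoribosyltransferase, had 25.0, 42.7, 35.3 and 48.1 CPM with 1-NM-PP1 against 412, 626, 492 and 357 CPM with DMSO, an LFC of -3.64 ± 0.26 (SE, adjusted p = 4.42e-16). *FUR1*, for uracil phosphoribosyltransferase, had 68.0, 48.8, 61.3 and 93.8 CPM against 750.1, 724, 644 and 839.8 CPM with DMSO, an LFC of -3.44 ± 0.24 (SE, adjusted p = 1.50e-16). *APT1*, for adenine phosphoribosyltransferase, had an LFC of -3.39 ± 0.39 (SE, adjusted p = 4.28e-10). In each gene every 1-NM-PP1 culture was below every DMSO culture.

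The divergence of paralogs was tested as a change of their ratio within a culture (limma on log2 CPM, adjusted over 510 paralog pairs kept from the whole-genome duplication, of which 43.9% changed ratio). Of the 8 pairs that hold a member, 5 changed. The log2 ratio of *URA7* to *URA8* changed by -7.59 ± 0.87 (SE), that of *URA5* to *URA10* by -6.84 ± 0.29, that of *RNR1* to *RNR3* by -5.19 ± 0.59, that of *ADE17* to *ADE16* by -4.44 ± 0.74 and that of *PRS4* to *PRS2* by -3.72 ± 0.35, with adjusted p from 7.01e-24 to 1.74e-06. The ratios of *RNR4* to *RNR2* (0.18 ± 0.63) and of *IMD4* to *IMD3* (-0.22 ± 0.30) did not pass, nor did that of *APT1* to *APT2*, a second copy outside the 40 genes (-1.29 ± 0.49, adjusted p = 0.0229). A share of 5 in 8 is read against 43.9% of all pairs.

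In PKA-WT, which lacks the gatekeeper mutations, 0 of 39 members passed without deletion (0.138% of all genes, in either direction; at an unadjusted p under 0.05, 1 was higher and 11 were lower). The members' median LFC was -0.57, against 0.02 over all genes, and *URA1* had 313, 343 and 277 CPM with 1-NM-PP1 against 832, 991 and 630.1 CPM with DMSO, an LFC of -1.40 ± 0.31 (SE, adjusted p = 0.02), without overlap. *URA1* passed in PKA-WT with ΔMsn2/4 (-1.65 ± 0.31 (SE, adjusted p = 0.002)) and with ΔRph1/Gis1 (-1.60 ± 0.31 (SE, adjusted p = 0.00448)), as 1 of 39 members in each, where 0.242% and 0.138% of all genes passed. In the quadruple deletion of PKA-WT, *ADE1* (-1.81 ± 0.35 (SE, adjusted p = 0.00229)) and *ADE17* (-2.61 ± 0.58 (SE, adjusted p = 0.00832)) fell and *URA10* (1.36 ± 0.29 (SE, adjusted p = 0.00563)) rose, 3 of 39 where 0.675% of all genes passed. The PKA-WT calls varied with the processing: over the 4 strains together 5 passed, against 11 by DESeq2, 9 with the culture as a block, 0 where only the groups compared were fitted and 2 to 8 when single cultures were left out, where the quadruple deletion gave 2 without DMSO culture 1 or 1-NM-PP1 culture 2, 3 without DMSO culture 2 or 1-NM-PP1 culture 1 or 3, and 8 without DMSO culture 3, and ΔRph1/Gis1 gave 3 without 1-NM-PP1 culture 2.

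The test of the difference between PKA-AS and PKA-WT in their LFC found 15 of 39 members lower in PKA-AS (38.5%, where 13.6% of all genes were) and 1, *URA10*, higher (10.0% of all genes were), with a median difference of -1.04 over the members and -0.05 over all genes. *URA10* differed by 3.82 ± 0.38 (SE, adjusted p = 1.93e-11), with 16.7, 14.5 and 19.2 CPM with 1-NM-PP1 against 11.2, 8.16 and 9.41 CPM with DMSO in PKA-WT. *URA7* differed by -6.05 ± 0.90 (SE, adjusted p = 4.33e-07) and *GUA1* by -5.53 ± 1.15 (SE, adjusted p = 0.000151), and their PKA-WT levels were 186, 169 and 108 CPM with 1-NM-PP1 against 404, 197 and 149 CPM with DMSO for *URA7* and 49.3, 11.1 and 39.0 CPM against 76.8, 11.3 and 28.9 CPM for *GUA1*. The treatments overlapped in PKA-WT for both genes and were far apart in PKA-AS. The fitted difference of *GUA1* rests on libraries at the counting limit and is no bound.

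The other members with a difference were *URA1* (-4.06), *IMD4* (-3.52), *PRS3* (-3.30), *IMD3* (-3.27), *FUR1* (-3.00), *APT1* (-2.82), *PRS4* (-2.82), *IMD2* (-2.73), *HPT1* (-2.66), *URA5* (-2.20), *PRS1* (-1.97), *ADE4* (-1.70) and *ADE8* (-1.17), each an LFC in PKA-AS minus that in PKA-WT. The calls of *ADE4* and *ADE8* were near the threshold (adjusted p = 0.00722 and 0.00547): that of *ADE4* was lost without any 1 of 7 cultures, at up to 0.0433 without 1-NM-PP1 culture 1 of PKA-WT, and that of *ADE8* without any 1 of 8, at up to 0.0241 without DMSO culture 3 of PKA-WT. *ADE8* also missed the threshold with RLE size factors (adjusted p = 0.0108) and with the culture as a block (adjusted p = 0.0116), where *ADE16* (1.77, adjusted p = 1.03e-04) and *URA4* (-1.06, adjusted p = 0.00840) passed. *ADE6*, *ADE1*, *ADE17*, *ADE12*, *SHM2* and *MTD1*, which fell in PKA-AS, did not pass this test, and their LFC in PKA-WT lay between -1.70 and -1.16. *URA2*, *URA4* and *RNR1* did not pass it either, with LFC in PKA-WT of -1.03, -0.43 and -0.29.

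The deletion strains ask how much of the response depends on Msn2 and Msn4, activators that PKA holds back, and on Rph1 and Gis1, which bind a related site. In the quadruple deletion of PKA-AS, 19 of 39 members fell (48.7%, where 11.8% of all genes fell) and 0 rose (6.90% of all genes; 4 at an unadjusted p under 0.05). With ΔMsn2/4, 21 fell (53.8%, where 12.0% of all genes fell) and 1 rose (8.69% of all genes). With ΔRph1/Gis1, 23 fell (59.0%, where 20.5% of all genes fell) and 3 rose (19.8% of all genes). The medians over the members were -1.15, -1.38 and -1.95, against 0.03, 0.03 and 0.09 over all genes, beside -2.33 without deletion, with a median below 0 in each of the 4 strains.

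With the culture as a block, further members passed in the deletion strains. The share of all genes called with the block was not computed. In the quadruple deletion the glycine cleavage genes *GCV2* (1.24, adjusted p = 0.00715) and *GCV3* (1.36, adjusted p = 0.00540) rose, in place of 0 without the block, and *SHM1* (-0.72, adjusted p = 0.00396) and *MTD1* (-1.38, adjusted p = 0.00103) fell. With ΔMsn2/4 *IMD2* (-1.04) and *MTD1* (-1.60) fell, and with ΔRph1/Gis1 *ADE13* (-1.71), *SHM1* (-0.59) and *RNR4* (-1.42) fell and *URA8* (1.21) rose, each an LFC from edgeR at an adjusted p under 0.01.

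The differences themselves were tested as LFC in the deletion strain minus LFC without deletion; both use the same cultures without deletion. For ΔMsn2/4, 4 members had higher values (5.05% of all genes) and 2 lower ones (3.51%). For the quadruple deletion, 5 had higher values (6.90%) and 2 lower ones (7.75%). For ΔRph1/Gis1, whose label the counts of the deleted genes do not bear out, 0 members passed (0.398% of all genes; 1 at an unadjusted p under 0.05). Over the 3 deletions together the calls were 13, also 13 by DESeq2, and 20 with the culture as a block.

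*URA10* lost most of its increase without Msn2 and Msn4. It had 14.4, 17.9, 13.2 and 15.8 CPM with 1-NM-PP1 against 12.2, 10.8, 10.8 and 9.57 CPM with DMSO in the quadruple deletion, and 10.7, 14.8, 21.7 and 24.2 CPM against 8.75, 4.27, 5.29 and 2.66 CPM with ΔMsn2/4. With ΔRph1/Gis1 it had 134, 161, 149 and 126 CPM against 8.85, 10.2, 12.4 and 9.23 CPM with DMSO. The LFC was 0.49 ± 0.24 (SE, adjusted p = 0.127) in the quadruple deletion, 1.68 ± 0.28 (SE, adjusted p = 3.32e-06) with ΔMsn2/4 and 3.80 ± 0.25 (SE, adjusted p = 2.53e-17) with ΔRph1/Gis1, and it differed from that without deletion by -4.12 ± 0.35 (SE, adjusted p = 8.17e-13) in the quadruple deletion and by -2.93 ± 0.37 (SE, adjusted p = 1.03e-07) with ΔMsn2/4. The 1-NM-PP1 cultures of both strains without Msn2 and Msn4 lay below every 1-NM-PP1 culture of the other strains.

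*ADE16* behaved likewise. It had 828, 1280, 867 and 1136 CPM with 1-NM-PP1 against 651, 1517, 1200 and 1446 CPM with DMSO in the quadruple deletion, and 877, 1289, 1465 and 1440 CPM against 498, 1703, 1116 and 1628 CPM with ΔMsn2/4. Its treatments overlapped in both strains and did not with ΔRph1/Gis1, at 1909, 2257, 2852 and 3256 CPM against 695, 769, 988 and 1486 CPM with DMSO. The LFC differed from that without deletion by -2.25 ± 0.53 (SE, adjusted p = 0.00123) in the quadruple deletion and by -1.98 ± 0.53 (SE, adjusted p = 0.00656) with ΔMsn2/4. The call with ΔMsn2/4 was lost without any 1 of 8 cultures, at adjusted p of 0.0108 (1-NM-PP1 culture 3 without deletion) to 0.0226 (1-NM-PP1 culture 2 without deletion), and without the 2017 pair (0.0173).

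In 4 genes the decrease was smaller without Msn2 and Msn4 by this test in both strains. They did not stand alone: the median difference over the members was 0.84 in the quadruple deletion and 0.55 with ΔMsn2/4. Over all genes, which rise and fall, it was 0.05 and 0.03. The paper describes a weaker response without Msn2 and Msn4 among repressed and activated genes in general. *URA5* had 249, 209.6, 211 and 212 CPM with 1-NM-PP1 against 439.6, 434, 453 and 387 CPM with DMSO in the quadruple deletion, and 260, 223, 221 and 217 CPM against 518, 434, 455 and 439 CPM with ΔMsn2/4. *FUR1* had 186, 176, 179 and 218 CPM against 756, 543, 503 and 705 CPM in the quadruple deletion, and 197, 246, 145 and 204 CPM against 695, 575, 466 and 639 CPM with ΔMsn2/4. *URA1* had 42.7, 44.1, 44.1 and 50.5 CPM against 710.4, 533, 451 and 384 CPM in the quadruple deletion, and 55.5, 62.4, 76.0 and 95.9 CPM against 555, 821, 577 and 449 CPM with ΔMsn2/4. For all 3 the treatments still did not overlap, and the 1-NM-PP1 cultures of both strains were above those of the strain without deletion.

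The LFC differed from that without deletion by 1.41 ± 0.22 (SE, adjusted p = 4.59e-06) in the quadruple deletion and 1.37 ± 0.23 (SE, adjusted p = 1.64e-05) with ΔMsn2/4 for *URA5*, by 1.72 ± 0.31 (SE, adjusted p = 4.27e-05) and 1.87 ± 0.31 (SE, adjusted p = 2.21e-05) for *FUR1* and by 1.94 ± 0.39 (SE, adjusted p = 0.000158) and 2.40 ± 0.39 (SE, adjusted p = 1.36e-05) for *URA1*. *PRS3* differed by 1.64 ± 0.45 (SE, adjusted p = 0.00506) and 1.76 ± 0.45 (SE, adjusted p = 0.00461), with 56.0, 38.0, 41.9 and 38.9 CPM with 1-NM-PP1 against 214, 157, 187 and 122 CPM with DMSO in the quadruple deletion. The *PRS3* calls were lost without the 2017 pair (adjusted p = 0.0142 in the quadruple deletion and 0.0134 with ΔMsn2/4), without any 1 of 6 single cultures in the quadruple deletion (up to 0.0205) and without any 1 of 7 with ΔMsn2/4 (up to 0.0182), both highest without DMSO culture 1 of the strain without deletion.

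*RNR1* differed in the quadruple deletion by 4.80 ± 1.33 (SE, adjusted p = 0.00605). It had 615, 332, 409.6 and 401 CPM with 1-NM-PP1 against 356, 70.2, 34.0 and 139.5 CPM with DMSO there, where the treatments overlapped at culture 1, and 545, 519, 47.0 and 40.5 CPM against 688, 148, 72.1 and 159 CPM with ΔMsn2/4. With ΔMsn2/4, 1-NM-PP1 cultures 1 and 2 were about as high as those of the quadruple deletion and cultures 3 and 4 as low as those without deletion. Of these, culture 3 was the library with only 188289 counts on genes. The call in the quadruple deletion was lost without the 2017 pair (adjusted p = 0.0120) and without any 1 of 7 cultures, at up to 0.0177 without 1-NM-PP1 culture 2 of the strain without deletion.

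With the culture as a block the quadruple deletion also differed for *IMD2* (1.93, adjusted p = 3.56e-04), *IMD3* (2.14, adjusted p = 0.00202), *IMD4* (1.30, adjusted p = 0.00329), *PRS4* (1.49, adjusted p = 0.00282) and *URA8* (-1.71, adjusted p = 6.16e-04), and ΔMsn2/4 for *IMD2* (1.77, adjusted p = 0.00157) and *IMD4* (1.29, adjusted p = 0.00781). *URA8* had 118, 198, 159 and 195 CPM with 1-NM-PP1 against 132, 243, 257 and 261 CPM with DMSO in the quadruple deletion, with overlapping treatments. *URA7* and *GUA1* were far lower with 1-NM-PP1 in every PKA-AS strain, and their LFC did not pass the test of a difference between a deletion strain and the strain without deletion. *URA7* was 60.2-fold lower with 1-NM-PP1 in the quadruple deletion (95% interval 43.9 to 84.7), 56.7-fold with ΔMsn2/4 (39.7 to 83.7) and 88.8-fold with ΔRph1/Gis1 (57.4 to 146; 209-fold, 95.8 to 570, without 1-NM-PP1 culture 3, which held 14 of its 20 counts), and *GUA1* was 45.7-fold (29.9 to 73.6), 51.4-fold (27.7 to 108) and 403-fold lower (137 to 1950, from 3 counts against 1416), all from summed counts and with intervals for counting error only.

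**Figure D3:**
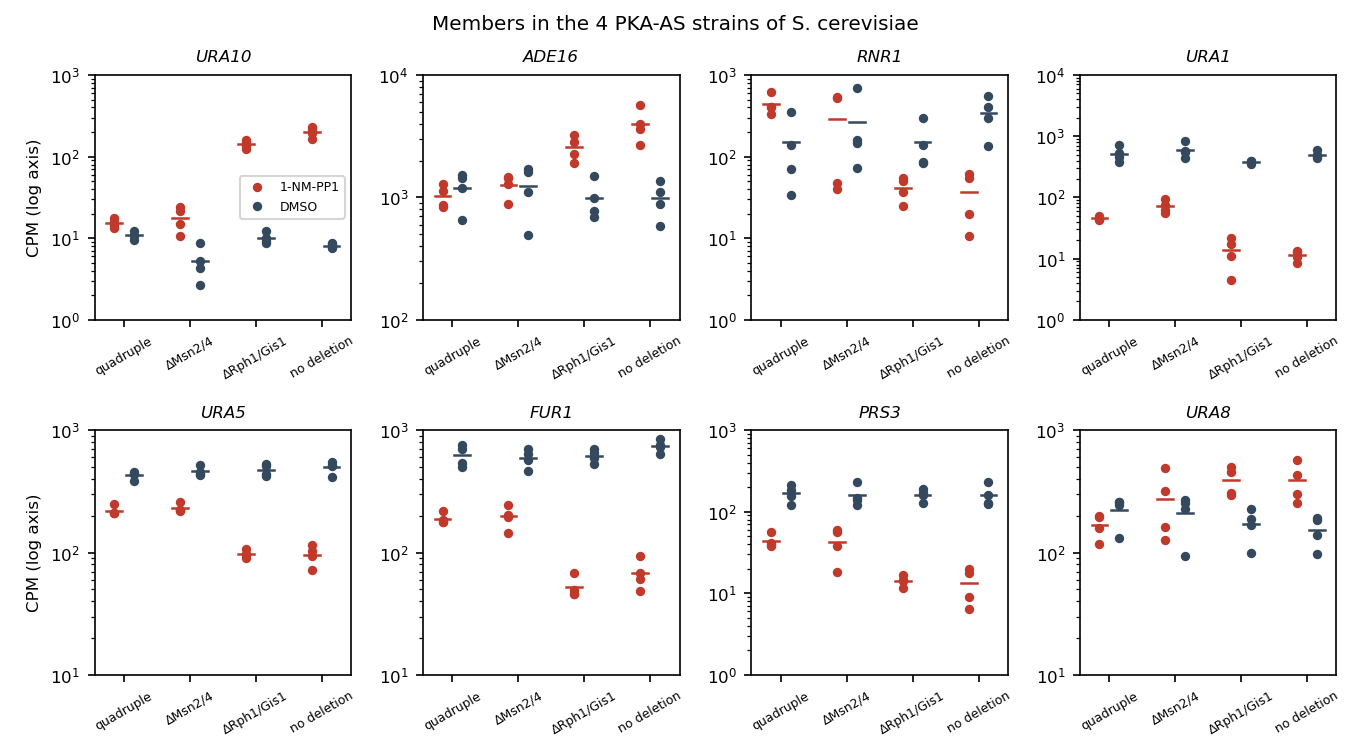
CPM of 8 members in the 4 PKA-AS strains of *S. cerevisiae*, the deletion strains left of the strain without deletion and 1-NM-PP1 left of DMSO. Points are cultures (4 per group) and lines their means, on logarithmic axes. The 1-NM-PP1 points of *URA10* lie at 10.7 to 24.2 CPM in the strains without Msn2 and Msn4 and at 126 to 228 CPM in the other strains.

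On DMSO, no member passed the test. None was called against the strain without deletion in the quadruple deletion (0.917% of all genes did), with ΔMsn2/4 (0.0692%) or with ΔRph1/Gis1 (1.25%), and none was called between PKA-AS and PKA-WT (0% of all genes). These counts of 0 were the same by DESeq2, and at an unadjusted p under 0.05 the counts of members were 2, 1, 2 and 2.

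In *K. lactis* the orthologs fell as well. In PKA-AS without deletion, 18 of the 32 genes fell with 1-NM-PP1 (56.2%, where 24.1% of all 5271 tested genes fell) and 2 rose, the *SHM1* and *GCV1* orthologs (6.25%, where 21.1% rose). The median LFC was -1.49 over the 32 genes and -0.04 over all genes. Orthologs carry the names of their *S. cerevisiae* counterparts here.

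*GUA1* had 13.9, 2.18, 2.83 and 1.86 CPM with 1-NM-PP1 against 268, 114, 131 and 151 CPM with DMSO, an LFC of -5.11 ± 0.68 (SE, adjusted p = 1.46e-07). The single CTP synthase gene, *URA7/URA8*, had 8.33, 14.9, 15.6 and 6.04 CPM against 303, 271, 298 and 203 CPM with DMSO, an LFC of -4.61 ± 0.29 (SE, adjusted p = 4.63e-14). *ADE4* had 25.5, 15.6, 21.2 and 15.3 CPM against 294, 280.1, 331 and 199.5 CPM with DMSO, an LFC of -3.84 ± 0.22 (SE, adjusted p = 9.08e-15). For each the treatments were far apart, and only for *GUA1* did a 1-NM-PP1 culture, the first, stand clear of the others.

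*PRS1* had 3.33, 10.9, 9.90 and 21.6 CPM with 1-NM-PP1 against 209, 192, 67.0 and 172 CPM with DMSO, an LFC of -3.74 ± 0.51 (SE, adjusted p = 2.80e-07). The IMP dehydrogenase gene, *IMD3/IMD4*, had 31.6, 19.6, 22.6 and 87.4 CPM against 585, 426, 135 and 465 CPM with DMSO, an LFC of -3.30 ± 0.72 (SE, adjusted p = 0.000236). *FUR1* had 46.1, 26.9, 32.5 and 20.5 CPM against 244, 194, 245 and 157 CPM with DMSO, an LFC of -2.75 ± 0.22 (SE, adjusted p = 1.07e-11). Treatments did not overlap, and DMSO culture 3 was the lowest DMSO culture for *PRS1* and *IMD3/IMD4*. That culture is among the libraries that went against their deletion label, with 2.03 CPM of the Msn2/4 ortholog, from 3 counts.

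The other 12 that fell were *APT1* (-2.37), *ADE6* (-2.37), *URA4* (-2.28), *SHM2* (-2.25), *PRS3* (-2.15), *RNR1/RNR3* (-1.88), *ADE13* (-1.84), *URA6* (-1.64), *GCV2* (-1.52), *URA5/URA10* (-1.25), *MTD1* (-1.24) and *ADE8* (-0.73), each an LFC. *SHM1* rose, with 1729, 1446, 1364 and 772 CPM with 1-NM-PP1 against 461, 528, 776 and 389 CPM with DMSO and an LFC of 1.30 ± 0.30 (SE, adjusted p = 0.000414). *GCV1*, the glycine cleavage gene without counts in *S. cerevisiae*, had 458, 268, 277 and 254 CPM against 48.4, 70.0, 83.6 and 61.6 CPM with DMSO, an LFC of 2.26 ± 0.32 (SE, adjusted p = 5.14e-07). In *SHM1* the 1-NM-PP1 culture 2017 was just below DMSO culture 3, and *GCV1* had no overlap.

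A further 12 genes did not pass: *ADE1*, *ADE2*, *ADE3*, *ADE12*, *ADE16/ADE17*, *HPT1*, *URA1*, *URA2*, *PRS2/PRS4*, *PRS5*, *RNR2/RNR4* and *GCV3*. The shared gene *ADE16/ADE17* had 1922, 817, 2634 and 1223 CPM with 1-NM-PP1 against 3980, 1562, 2575 and 1267 CPM with DMSO, with overlapping cultures. With the culture as a block, *ADE2* (-0.67, adjusted p = 0.00462), *URA2* (-1.17, adjusted p = 6.59e-04), *ADE3* (-1.62, adjusted p = 0.00328) and *PRS2/PRS4* (-0.59, adjusted p = 0.00771) passed. *ADE8* was at an adjusted p of 0.0103 without the 8 libraries that went against their deletion label.

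**Figure D4:**
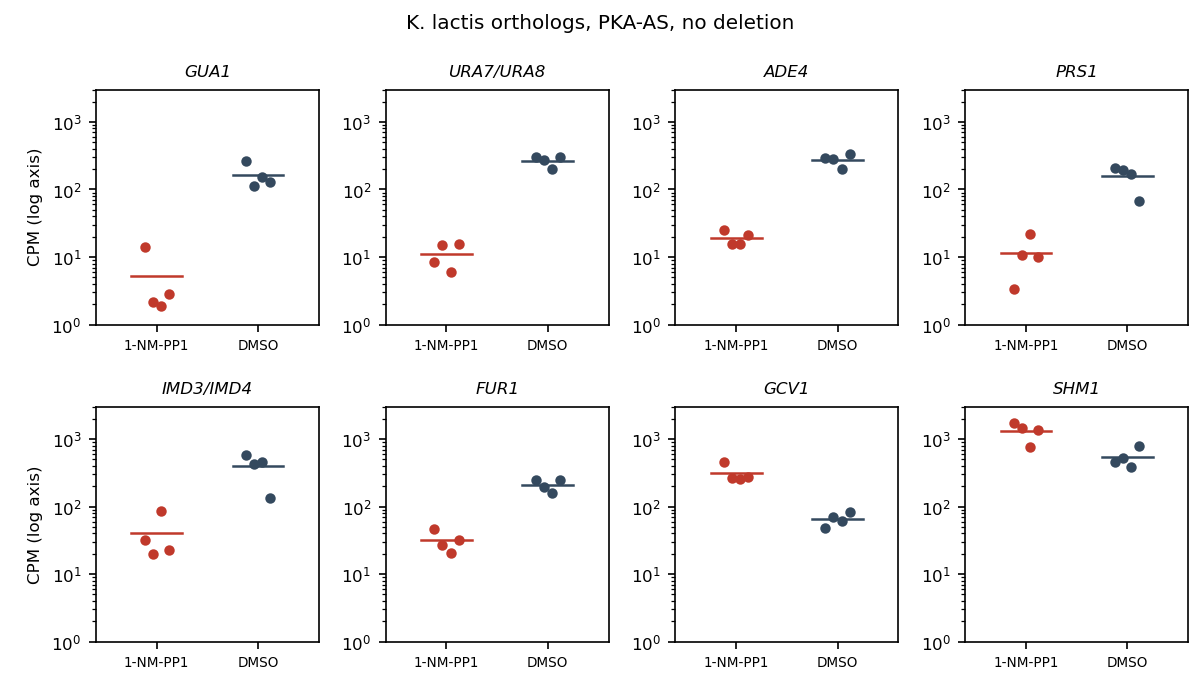
CPM of 8 *K. lactis* orthologs in each PKA-AS culture without deletion, 1-NM-PP1 left of DMSO, on logarithmic axes. Points are the 4 cultures and lines their means. The other 6 genes are lower and *GCV1* and *SHM1* higher with 1-NM-PP1.

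The deletions of the *K. lactis* orthologs left the counts close to these. With both removed, 17 of 32 fell (53.1%, where 19.6% of all genes fell) and 2 rose (12.5% of all genes). Without the Msn2/4 ortholog, 18 fell (22.7% of all genes) and 2 rose (19.7%), and without the Rph1/Gis1 ortholog, 20 fell (22.8%) and 2 rose (18.7%). The medians were -1.48, -1.55 and -1.49, against -0.08, -0.01 and 0.01 over all genes. No gene passed the test of a difference in LFC from the strain without deletion, with both removed (1.04% of all genes did), without the Msn2/4 ortholog (0.0379%) or without the Rph1/Gis1 ortholog (0.360%), and the counts at an unadjusted p under 0.05 were 5, 0 and 3. DESeq2 called 1 over the 3 deletions, and with the culture as a block *ADE1* passed with both removed (-1.31, adjusted p = 0.00865). Since 8 libraries went against their deletion label, these counts carry that doubt, and without them the deletion strains held 50 calls, beside 61 with them (a setting chosen after the data were seen). DMSO culture 3 without deletion is among the 8. The doubt therefore also touches the *K. lactis* comparison without deletion, the allele difference and the species comparison.

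In *K. lactis* PKA-WT, 2 of 32 genes fell (6.15% of all genes changed in either direction), *URA5/URA10* (-1.23 ± 0.31 (SE, adjusted p = 0.0082)) and *FUR1* (-1.10 ± 0.26 (SE, adjusted p = 0.00541)). *URA5/URA10* had 94.3, 86.2 and 63.4 CPM with 1-NM-PP1 against 222 and 159 CPM with DMSO in PKA-WT, and 62.7, 73.8, 52.3 and 96.3 CPM against 176, 171, 111 and 224 CPM in PKA-AS, and the difference between alleles did not pass (-0.02 ± 0.40 (SE, adjusted p = 0.985)). Both PKA-WT calls were lost without DMSO culture 1 or any of the 3 1-NM-PP1 cultures and where only the groups compared were fitted.

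The LFC differed between PKA-AS and PKA-WT for 8 of the 32 genes, all lower in PKA-AS (25%, where 7.97% of all genes were lower; 0 were higher, where 3.40% of all genes were, with 2 at an unadjusted p under 0.05). They were *URA7/URA8* (-3.69 ± 0.42 (SE, adjusted p = 4.26e-07)), *ADE4* (-3.19 ± 0.33 (SE, adjusted p = 8.98e-08)), *PRS1* (-2.93), *RNR2/RNR4* (-2.44), *SHM2* (-2.19), *URA4* (-1.89), *PRS3* (-1.87) and *FUR1* (-1.64). For *RNR2/RNR4* the LFC was -1.14 in PKA-AS and 1.30 in PKA-WT, and neither was called by edgeR (adjusted p = 0.0170 and 0.0992). PKA-WT had 2 DMSO cultures, and without the second of them 3 calls were left, with *PRS1* at an adjusted p of 0.113, *RNR2/RNR4* at 0.136, *URA4* at 0.0624, *PRS3* at 0.0421 and *SHM2* at 0.0136. Without culture 1 of PKA-AS on DMSO, or culture 1 or 3 of PKA-WT on 1-NM-PP1, 5 calls were left. With the culture as a block, *RNR2/RNR4* missed the threshold (adjusted p = 0.0110) and *ADE6* (-2.83, adjusted p = 0.00745) and *GUA1* (-3.65, adjusted p = 3.99e-04) passed.

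The species were compared in a joint fit over 4802 ortholog pairs, of which 38 hold a tested member, on 31 *K. lactis* genes; paralogs share the value of their *K. lactis* gene. The LFC was higher in *S. cerevisiae* for 4 pairs (13.8% of all pairs were higher) and lower for 7 (9.14% of all pairs were lower), with a median difference of -0.26 over the members and 0.06 over all pairs. Each of the 4 was 1 gene of a paralog pair: *URA8* by 5.94 ± 0.68 (SE), *URA10* by 5.86 ± 0.36, *RNR3* by 4.13 ± 0.76 and *ADE16* by 2.53 ± 0.75. Their partners *URA7*, *RNR1* and *ADE17* did not pass (adjusted p = 0.0159, 0.343 and 0.0330), and *URA5* was lower in *S. cerevisiae* by -1.12 ± 0.29.

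*URA1* had the largest decrease relative to *K. lactis*, by -4.76 ± 0.46 (SE, adjusted p = 1.33e-13): its *K. lactis* ortholog had 185, 128, 134 and 174 CPM with 1-NM-PP1 against 368, 219, 294 and 128 CPM with DMSO, with overlapping cultures. *HPT1* differed by -3.13 ± 0.35, *PRS4* by -3.06 ± 0.50, *ADE1* by -2.09 ± 0.43, *SHM1* by -1.96 ± 0.42 and *PRS3* by -1.44 ± 0.42. In *SHM1* the directions were opposite, with an LFC of -0.66 in *S. cerevisiae*, which did not pass, and 1.30 in *K. lactis*. The calls of *ADE16* and *PRS3* were lost without the 2017 cultures (adjusted p = 0.0222 and 0.0165) and without any 1 of 6 and of 7 single cultures, at up to 0.0249 without DMSO culture 1 of *K. lactis* for *ADE16* and 0.0233 without DMSO culture 1 of *S. cerevisiae* for *PRS3*. Each species was counted on its own annotation, and the part of that in these differences was not tested.

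**Figure D5:**
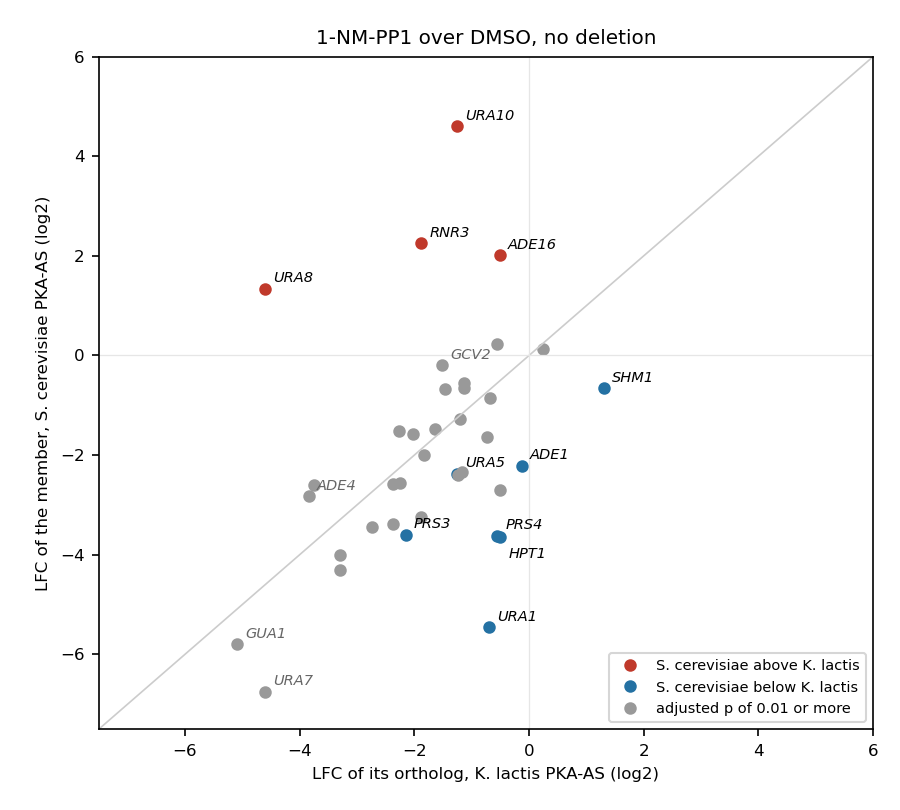
LFC of 38 member pairs in PKA-AS without deletion, *S. cerevisiae* on the vertical axis and the *K. lactis* ortholog on the horizontal axis, with the line of equal LFC. Coloured points differed between species at an adjusted p under 0.01, above the line for *URA10*, *URA8*, *RNR3* and *ADE16* and below it for 7 members such as *URA1* and *HPT1*.

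Genes of the same pathways outside the 40 were followed in a list of 57, which held further enzymes, transporters and regulators and, like the members, was drawn up with earlier results of these data known. Of the 52 tested in *S. cerevisiae* PKA-AS without deletion, 20 fell (38.5%, where 21.2% of all genes fell) and 5 rose (9.62%, where 20.7% of all genes rose), with a median LFC of -0.87. Those that fell past -2 were *AAH1* (adenine deaminase, -6.92), *FCY2* (the purine and cytosine permease, -5.42), *MIS1* (the mitochondrial trifunctional folate enzyme, -4.91), *DCD1* (dCMP deaminase, -3.87), *URK1* (uridine kinase, -3.38), *SER2* (the last step of serine synthesis, -3.07), *BAS1* (the activator of ADE genes, -2.98), *SAH1* (-2.73) and *SAM1* (-2.67) of the methyl cycle, *FUR4* (the uracil permease, -2.73), *FUI1* (the uridine permease, -2.63), *DUT1* (dUTPase, -2.47) and *FCY21* (-2.24). *GUD1*, guanine deaminase, rose by 2.77. Also called past 2, but at too few counts for a fold, were *PPR1*, the activator of URA genes, with 0 to 1 count in the 1-NM-PP1 cultures against 4 to 23 in the DMSO cultures, and *AGX1*, which makes glycine from glyoxylate, with 0 to 4 counts against 0.

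Of the 50 such genes tested in *K. lactis*, 25 fell (50%, where 24.1% of all genes fell) and 6 rose (12%, where 21.1% of all genes rose). *AGX1* and *GUD1* rose, by 3.53 and 2.87. Past -2 were *MIS1* (-5.70), *GUK1* (guanylate kinase, -5.48), *XPT1* (xanthine phosphoribosyltransferase, -5.39), *FCY1* (cytosine deaminase, -3.32), *SAH1* (-3.24), *FCY2* (-3.17), *SAM1/SAM2* (-3.11), *YNK1* (nucleoside diphosphate kinase, -3.05), *FAU1* (-2.66), *ADO1* (adenosine kinase, -2.59), *MET6* (methionine synthase, -2.48), *RFX1* (a repressor of RNR genes, -2.43), *AAH1* (-2.29) and *DUT1* (-2.16), each an LFC. *FOL2*, GTP cyclohydrolase of folate synthesis, with 0 to 1 count in the 1-NM-PP1 cultures against 29 to 107 in the DMSO cultures, and *GLY1*, threonine aldolase, with 0 to 2 counts against 1 to 10, were called lower as well.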

How the data were processed

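The authors made QuantSeq 3′ libraries, aligned the reads and deposited raw counts per gene for each library, counted with HTSeq (version not given in the sources used here) on R64 for *S. cerevisiae*, with published 3′ UTRs added to the genes, and on a *K. lactis* annotation whose genes were extended by estimated 3′ UTRs. The submitters' processing notes also name DESeq2. The deposited tables of DESeq2 comparisons, which hold fold changes and p-values, were not used, and 0 columns of per-sample values were left unused. A library whose label marks it as dropped was not used, and repeat libraries of a culture were summed, which gave 56 *S. cerevisiae* cultures. Reads placed on no single gene were kept out of totals and tests.

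Counts were analysed with edgeR 4.0.16 (limma 3.58.1, R 4.3.3): a filter of 2 or more counts in 3 or more samples, TMM scaling, a single factor over allele, deletion and treatment for all cultures of a species, quasi-likelihood tests and Benjamini-Hochberg adjustment over all genes tested, called at an adjusted p under 0.01. Standard errors were computed from the LFC and its F. Paralog ratios were tested with limma on log2 CPM (prior count 2), and the species in a joint edgeR fit. The fits were tested on simulated counts with known changes. Intervals of count ratios are exact, at 95%, and cover counting error only. Promoters and coordinates came from RefSeq on R64. Python 3.11.15, pandas 2.3.3, numpy 2.4.6, scipy 1.17.1 and matplotlib 3.10.9 were used.

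The number in the labels was read as pairing a drug with a DMSO library, because the labels' treatment protocol says that a culture was divided before treatment. The deviations of paired libraries from their group means correlated at -0.18 to 0.79 in *S. cerevisiae* (28 pairs, median 0.43, 20 of them best with their own partner) and at -0.29 to 0.64 in *K. lactis* (17 pairs, median 0.43, 13 best with their own). The main analysis had no block, as in the study's methods.

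Members and lists were chosen with earlier results of these data known. Values in every culture are given for members of paralog groups, for the 10 members with the largest LFC in *S. cerevisiae* and the 6 in *K. lactis*, every member with an interaction is named, and genes outside the 40 are named at an LFC past 2. Values in every culture for *ADE4*, *ADE13*, *URA2*, *GCV1*, *SHM1* and further *K. lactis* genes were added after their values were seen. Alternatives were DESeq2 1.42.0, RLE size factors, other filters, fits of the compared groups alone, the culture as a block, cultures left out (also for the summed counts of *GUA1* and *URA7*, a choice made after the data were seen), first libraries of repeated cultures and another prior count.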

Additional observations from a re-analysis of the deposited data

Results flagged for a closer look

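Of 56 groups of 4 cultures in which a single culture was set against the others (Dixon's test, for which chance gives about 1 in 20), 3 held a culture that stood apart. *ADE17* had 76.4 CPM in 1-NM-PP1 culture 2 of *S. cerevisiae* PKA-AS without deletion, where the other 3 cultures lay between 51.0 and 54.6 CPM. *URA7* had 376.3 CPM in DMSO culture 1 of the same strain, where the others lay between 96.3 and 137 CPM. *GUA1* had 13.9 CPM in 1-NM-PP1 culture 1 of *K. lactis* PKA-AS without deletion, where the others lay between 1.86 and 2.83 CPM.

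A tested difference between groups in the response to 1-NM-PP1 was found 48 times, each given here on the log2 scale from edgeR at an adjusted p under 0.01. Relative to *S. cerevisiae* PKA-AS without deletion, the LFC in the quadruple deletion differed by -4.12 for *URA10*, -2.25 for *ADE16*, 4.80 for *RNR1*, 1.94 for *URA1*, 1.72 for *FUR1*, 1.64 for *PRS3* and 1.41 for *URA5*, and with ΔMsn2/4 by -2.93 for *URA10*, -1.98 for *ADE16*, 2.40 for *URA1*, 1.87 for *FUR1*, 1.76 for *PRS3* and 1.37 for *URA5*. Between PKA-AS and PKA-WT in *S. cerevisiae* it differed by 3.82 for *URA10*, -6.05 for *URA7*, -5.53 for *GUA1*, -4.06 for *URA1*, -3.52 for *IMD4*, -3.30 for *PRS3*, -3.27 for *IMD3*, -3.00 for *FUR1*, -2.82 for both *APT1* and *PRS4*, -2.73 for *IMD2*, -2.66 for *HPT1*, -2.20 for *URA5*, -1.97 for *PRS1*, -1.70 for *ADE4* and -1.17 for *ADE8*. Between these alleles in *K. lactis* it differed by -3.69 for *URA7/URA8*, -3.19 for *ADE4*, -2.93 for *PRS1*, -2.44 for *RNR2/RNR4*, -2.19 for *SHM2*, -1.89 for *URA4*, -1.87 for *PRS3* and -1.64 for *FUR1*. Between *S. cerevisiae* and *K. lactis* it differed by 5.94 for *URA8*, 5.86 for *URA10*, 4.13 for *RNR3*, 2.53 for *ADE16*, -4.76 for *URA1*, -3.13 for *HPT1*, -3.06 for *PRS4*, -2.09 for *ADE1*, -1.96 for *SHM1*, -1.44 for *PRS3* and -1.12 for *URA5*. For *URA10*, *ADE16*, *RNR3* and *URA8* in *S. cerevisiae* PKA-AS without deletion, every 1-NM-PP1 culture was above every DMSO culture. The share of all genes that separated in this way was not computed. The rise of *URA8* did not pass the test without the block.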

How the results depend on the processing

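No result called in the main analysis changed its direction, and the direction of results that were not called was not followed. With the culture as a replicate block, the calls in *S. cerevisiae* PKA-WT numbered 9 (5 without the block), those of the deletion differences 20 (13 without) and those of the *K. lactis* deletion differences 1 (0 without), and the members whose call the block changed in the comparisons without deletion are given beside their values. In the deletion strains the block also added 10 calls on 8 members in *S. cerevisiae* PKA-AS and 9 calls on 6 genes in *K. lactis*. The share of all genes called was computed for the main fit only. The counts under the block and the other settings therefore have no share of all genes to be read against. DESeq2 gave 11 calls in *S. cerevisiae* PKA-WT and 1 deletion difference in *K. lactis*. Fits of only the groups compared gave 0 PKA-WT calls in either species, and a filter of 1 count gave 1 PKA-WT call in *K. lactis* (2 before). With single cultures left out, the counts ran from 2 to 8 for *S. cerevisiae* PKA-WT, 0 to 2 for *K. lactis* PKA-WT, 3 to 11 for the allele difference in *K. lactis* and 9 to 14 for the deletion differences in *S. cerevisiae*. Over the members, leaving out a culture kept 2196 results on their side of the threshold, took 168 below it and brought 6 above it. Depth limits *GUA1*, *URA7*, *URA6*, *RNR3* and, outside the 40 genes, *AGX1*, *PPR1*, *FOL2* and *GLY1*, with few counts per library.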
